A study of Mus musculus with 6 samples.

Results

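The 9 genes described here write, maintain, oxidise or excise methylated cytosine in DNA: the de novo methylation genes *Dnmt3a*, *Dnmt3b* and *Dnmt3l*, the maintenance genes *Dnmt1* and *Uhrf1*, the oxidation genes *Tet1*, *Tet2* and *Tet3*, and the excision gene *Tdg*. They were chosen by gene symbol, and each was found once among the 24393 features counted in every library. The data are RNA-seq counts of KH2 mouse embryonic stem cells (mESCs) that were not differentiated, in 3 control and 3 *HOXA13*-overexpressing libraries, and the comparison asks how forced *HOXA13*, a posterior homeobox transcription factor, moved the RNA levels of these genes. Cells of both groups carry the strain label C57/BL/6 and grew with LIF and fetal calf serum on irradiated 3T3-Swiss albino fibroblasts as feeder cells. The genotype labels are CONTROL and HOXA13. The *HOXA13* cells received the human gene with a FLAG tag by targeting under doxycycline control, in colonies selected with hygromycin. The methods call the 3 libraries of each group biological replicates. The paper calls the controls of its differentiation cultures wildtype, and whether the replicates are separate clones or cultures of 1 clone is not given in the sources used here. The sample labels state that no treatment was given, while the methods describe testing of clones with doxycycline, so induction in the sequenced cultures is known only from the transgene's counts. P-values measure the spread between these libraries.

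In mammals, DNA methylation is placed mainly on cytosines followed by guanine (CpG). DNMT3A and DNMT3B methylate unmodified sites, and DNMT3L, which has no catalytic activity, stimulates them. After replication, UHRF1 recognises the hemimethylated site and brings in DNMT1, which copies the mark to the new strand. TET enzymes oxidise 5-methylcytosine to 5-hydroxymethylcytosine and further forms, of which TDG removes the last ones by base excision. Mouse embryonic stem cells are known for high *Dnmt3b*, *Dnmt3l*, *Tet1* and *Tet2*, and for a methylation level that shifts with the balance of these genes between naive and primed states. Methylation itself was not measured in these libraries.

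Control libraries held 14608681 to 21766589 counts and *HOXA13* libraries 13494135 to 20374341. Levels are in CPM (counts divided by the library size after TMM scaling in edgeR), and a floor of 3 counts corresponds to between 0.134 and 0.227 CPM, for counting error only. The feature ENSG00000106031, which carries a human identifier and stands for the targeted gene, was counted 6, 0 and 0 times in control against 4298, 4177 and 2881 times in *HOXA13* libraries (edgeR's quasi-likelihood test, adjusted p = 1.93e-06). Mouse *Hoxa13* was counted 16, 23 and 21 against 25, 30 and 23 times (log2 fold change 0.51, adjusted p = 0.295). The defining markers of embryonic stem cells were present in all libraries, with *Pou5f1* at 633 to 783 CPM in control and 685 to 694 CPM in *HOXA13* libraries. Control replicates differed more among themselves than *HOXA13* replicates did, with chi-square per degree of freedom over genes of 12.7 to 34.2 against 1.89 to 6.03.

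The promoters of the 5 genes that passed the test are shown first, since these genes moved in opposite directions. Each sequence holds the 250 bases before a RefSeq start site, 5′ to 3′ on the gene's strand, with CpG in capitals. The sequences are credited to RefSeq (GRCm38.p6), and each was found exactly once on its mm9 chromosome, at chr3:133207355-133207604 on the minus strand for *Tet2*, chr17:56443486-56443735 on the plus strand for *Uhrf1*, chr12:3806730-3806979 on the plus strand for *Dnmt3a*, chr2:153474935-153475184 on the plus strand for *Dnmt3b* and chr10:77512337-77512586 on the plus strand for *Dnmt3l*.
Tet2: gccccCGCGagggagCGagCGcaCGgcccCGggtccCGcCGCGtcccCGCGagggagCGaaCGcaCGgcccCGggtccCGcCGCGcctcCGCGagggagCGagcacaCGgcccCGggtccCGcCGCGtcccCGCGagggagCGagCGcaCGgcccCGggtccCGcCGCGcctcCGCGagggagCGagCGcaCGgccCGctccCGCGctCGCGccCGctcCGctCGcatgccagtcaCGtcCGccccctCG
Uhrf1: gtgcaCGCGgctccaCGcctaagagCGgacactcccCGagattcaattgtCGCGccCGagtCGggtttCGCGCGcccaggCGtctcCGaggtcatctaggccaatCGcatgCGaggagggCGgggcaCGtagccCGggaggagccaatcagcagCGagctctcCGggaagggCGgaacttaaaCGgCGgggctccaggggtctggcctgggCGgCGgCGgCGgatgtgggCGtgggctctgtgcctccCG
Dnmt3a: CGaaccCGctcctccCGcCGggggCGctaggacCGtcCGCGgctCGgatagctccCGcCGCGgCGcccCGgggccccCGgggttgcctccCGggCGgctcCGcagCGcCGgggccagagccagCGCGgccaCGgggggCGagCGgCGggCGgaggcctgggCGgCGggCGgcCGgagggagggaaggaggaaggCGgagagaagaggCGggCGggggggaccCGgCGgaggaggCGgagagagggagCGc
Dnmt3b: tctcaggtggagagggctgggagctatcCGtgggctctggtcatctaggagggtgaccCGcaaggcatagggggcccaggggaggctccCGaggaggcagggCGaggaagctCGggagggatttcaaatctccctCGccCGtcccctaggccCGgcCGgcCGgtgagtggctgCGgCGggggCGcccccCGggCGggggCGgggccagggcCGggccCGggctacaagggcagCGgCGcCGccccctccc
Dnmt3l: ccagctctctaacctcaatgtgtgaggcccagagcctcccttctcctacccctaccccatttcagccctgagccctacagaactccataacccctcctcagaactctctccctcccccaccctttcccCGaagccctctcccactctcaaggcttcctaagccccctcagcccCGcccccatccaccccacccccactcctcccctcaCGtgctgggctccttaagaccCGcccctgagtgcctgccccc

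RefSeq gives several start sites for some of these genes, and the printed windows were taken among those that share no base with an annotated exon, of which *Dnmt3l* has a further one. The *Tet2* promoter held 51 CpG (percentile 99.9 among 32526 windows of the same length, whose median was 6), and the *Uhrf1* promoter held 30 (percentile 94.0). Of the genes that fell, the *Dnmt3a* promoter held 38 CpG (percentile 98.1), the *Dnmt3b* promoter 21 (percentile 83.5) and the *Dnmt3l* promoter 4 (percentile 37.4). The windows not printed held 40 and 15 CpG for *Dnmt3a* (percentiles 98.7 and 72.5), 10 for *Uhrf1* (percentile 61.9) and 5 and 3 for *Dnmt3l* (percentiles 44.1 and 28.8), so the order of the genes by CpG depends on the start site chosen. The letters CAATAAA and TCGTAAA, which resemble motifs of posterior HOX factors, were searched on both strands. None of the 16 windows that RefSeq gives for the 9 genes held them, against 4.11% and 0.483% of all windows. At these shares 16 windows can easily hold no match, so the absence decides nothing about these promoters. The printed windows held 64.0% to 83.6% G and C bases, against a median of 52.4%. The shares of all windows are therefore not a matched reference, here or for the letters below. The letters TTTGGCGC, TTTCCCGC, TTTCGCGC or TTTGCCGC, which resemble the site of E2F factors, were found on either strand in 1.88% of all windows, and no searched motif contains another. Among the 16 windows they occurred in 1 *Uhrf1* window, the one printed (TTTCGCGC, starting 185 bases before the start site), and in 1 *Dnmt1* window (GCGCGAAA, on the other strand, 219 bases before it).

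Across all genes, 3836 of 13846 tested genes (27.7%) passed an adjusted p of 0.05, with 1994 (14.4%) higher and 1842 (13.3%) lower in *HOXA13* libraries. Of the 9 genes, 8 passed the filter on low counts and were tested, 2 of them rose (*Uhrf1* and *Tet2*), 3 fell (*Dnmt3a*, *Dnmt3b* and *Dnmt3l*), 3 did not pass (*Dnmt1*, *Tet1* and *Tet3*) and *Tdg* was not tested. The count of 3 became 1 without *HOXA13* replicate 1, when only *Dnmt3a* passed, and *Dnmt3b*, whose groups overlapped, passed under 8 of 16 alternatives. The groups did not overlap in CPM for 4 of the tested members, against 45.7% of all tested genes. The median log2 fold change of the 8 tested members was -0.07, against 3.73e-05 for all tested genes. In bulk libraries, fewer cells of a type and less RNA per cell cannot be told apart.

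**Figure D1:**
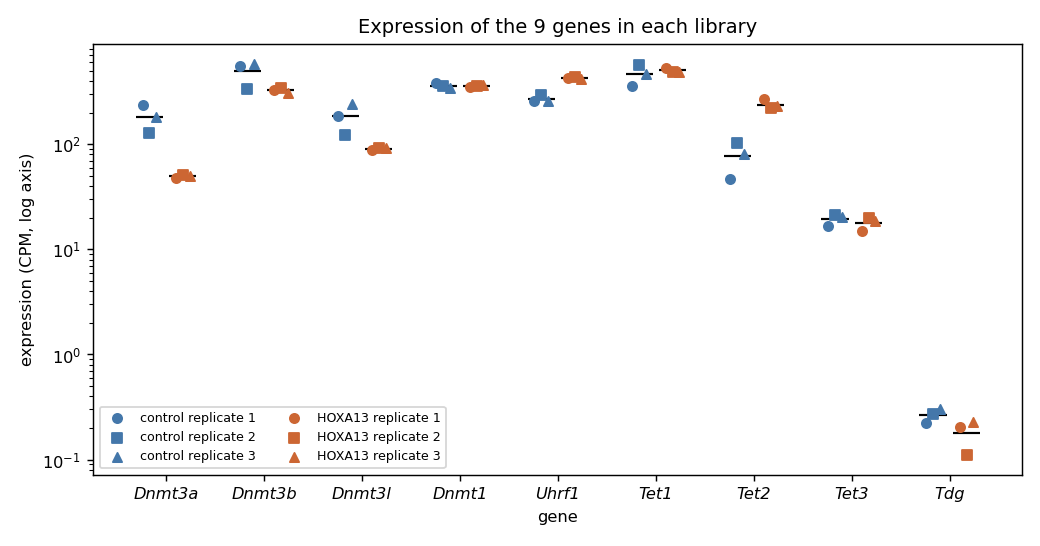
Level of each of the 9 genes (CPM, log axis) in each library, with control libraries in blue, HOXA13 libraries in orange, a marker shape for each replicate number and black bars for the group means (n = 3). The HOXA13 points of Dnmt3a (47.7 to 50.9 CPM) lie below all control points, those of Tet2 (219.8 to 267 CPM) above all control points, and Tdg lies near the floor in every library.

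*Dnmt3a*, a de novo DNA methyltransferase, lies on chromosome 12 of mm9 from 3806007 to 3914443 on the plus strand. It stood at 237, 129 and 184 CPM in control replicates 1 to 3 and at 47.7, 50.9 and 49.6 CPM in *HOXA13* replicates 1 to 3. Every *HOXA13* library was below every control library, and the control libraries spread far more widely than the *HOXA13* libraries. The means were 183 ± 53.8 and 49.4 ± 1.63 CPM (SD, n = 3 each), and *Dnmt3a* fell by 1.89 on the log2 scale (standard error 0.19, edgeR's quasi-likelihood test, Benjamini-Hochberg adjusted p = 0.000393), which is 3.71-fold lower. This was the largest change among the 8 tested members, and it passed the test without any single library, with log2 fold changes of -2.10 to -1.67. The gene shares 133 exonic bases with *Gm10485* on the opposite strand, and *Gm10485* is not among the counted features.

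*Dnmt3l*, the non-catalytic partner of the de novo enzymes, lies on chromosome 10 from 77504692 to 77526367 on the plus strand. It stood at 187, 124 and 244 CPM in control and at 88.9, 91.7 and 92.2 CPM in *HOXA13* libraries, and the groups did not overlap. The means were 185 ± 60.0 and 90.9 ± 1.81 CPM (SD, n = 3 each), 2.03-fold lower (adjusted p = 0.00837), and the log2 fold change was -1.02 with a standard error of 0.21. Without *HOXA13* replicate 1 the call was lost (adjusted p = 0.0544) with a log2 fold change of -1.01. The gene shares 67 exonic bases with *Aire* on the opposite strand, and the strand setting of the counting is not given in the sources used here.

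*Dnmt3b*, the de novo enzyme with the highest level of the 3 in every library also per kilobase, lies on chromosome 2 from 153475186 to 153513466 on the plus strand. It stood at 560, 333 and 586 CPM in control and at 329, 345 and 309 CPM in *HOXA13* libraries. Control replicate 2 lay within the range of the *HOXA13* libraries, so the groups overlapped. The means were 493 ± 139 and 328 ± 17.8 CPM (SD, n = 3 each), and the log2 fold change of -0.59 passed the threshold narrowly (standard error 0.19, adjusted p = 0.0491). It did not pass under 8 of 16 alternatives: the replicate number as a block (log2 fold change -0.55, adjusted p = 0.0753), robust estimation (adjusted p = 0.0581), limma-voom (adjusted p = 0.0693) and leaving out any library except control replicate 2. Of those leave-outs, the adjusted p was 0.0682 without control replicate 1, 0.161 without control replicate 3, and 0.152, 0.117 and 0.152 without *HOXA13* replicates 1, 2 and 3.

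Within the *Dnmt3* genes, the balance shifted as well as the level. Ratios of counts within a library do not depend on the scaling between libraries. There were 2.36, 2.58 and 3.19 *Dnmt3b* counts for each *Dnmt3a* count in control libraries and 6.91, 6.77 and 6.23 in *HOXA13* libraries, with no overlap. The ratio of *Dnmt3l* to *Dnmt3a* was 0.790, 0.957 and 1.33 in control and 1.86, 1.80 and 1.86 in *HOXA13* libraries. *Dnmt3a* made up 21.4 ± 3.02% of the counts of the 3 genes in control and 10.6 ± 0.394% in *HOXA13* libraries, *Dnmt3b* 57.2 ± 0.550% and 70.0 ± 1.25%, and *Dnmt3l* 21.4 ± 2.53% and 19.4 ± 0.878% (SD, n = 3 each). The *Dnmt3b* share varied little among control libraries, from 56.8% to 57.8%, although the summed level of the 3 genes varied from 586 to 1013 CPM there. That sum was 466, 487 and 451 CPM in *HOXA13* libraries, below every control library.

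**Figure D2:**
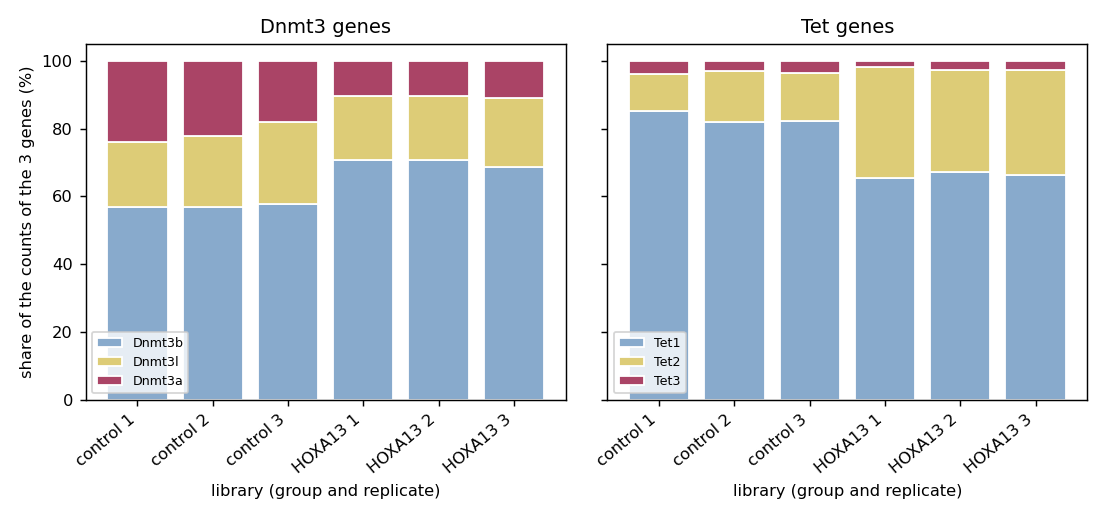
Share of the counts of the 3 Dnmt3 genes (left) and of the 3 Tet genes (right) taken by each gene, in percent, with 1 stacked bar per library. Dnmt3a takes 18.1% to 24.1% in control and 10.2% to 11.0% in HOXA13 libraries, and Tet2 takes 11.0% to 15.04% and 30.2% to 32.7%.

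The maintenance genes did not move together. *Dnmt1*, the maintenance methyltransferase, on chromosome 9 from 20711650 to 20757317 on the minus strand, stood at 382, 359 and 344 CPM in control and at 350, 357 and 364 CPM in *HOXA13* libraries. The *HOXA13* values lay within the control range. The means were 361.5 ± 19.3 and 357 ± 7.08 CPM (SD, n = 3 each), and the log2 fold change was -0.019 (standard error 0.061, adjusted p = 0.848), or 0.022 without control replicate 1. This was the smallest change with the smallest standard error of the 8 tested members.

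*Uhrf1*, which binds hemimethylated DNA and recruits DNMT1, lies on chromosome 17 from 56442744 to 56462909 on the plus strand. It stood at 260, 292 and 260 CPM in control and at 424, 434 and 422 CPM in *HOXA13* libraries, with no overlap and little spread in either group. *Uhrf1* rose by 0.66 on the log2 scale (standard error 0.07, adjusted p = 0.000348), from 271 ± 18.3 to 427 ± 6.34 CPM (SD, n = 3 each), and passed under all 16 alternatives with log2 fold changes of 0.58 to 0.70. The ratio of *Uhrf1* to *Dnmt1* counts was 0.681, 0.813 and 0.756 in control and 1.21, 1.22 and 1.16 in *HOXA13* libraries. Reads from 16.5% of the 75-base windows of *Uhrf1* transcripts also match 1 place on chromosome X exactly, and how such reads were counted is not given in the sources used here.

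*Uhrf1* is known to be expressed in cycling cells, and 16 genes of DNA replication and S phase were read beside it. Of these, 9 rose and 1 fell, with a median log2 fold change of 0.19 and a summed level of 4354 to 4939 CPM in control and 6126 to 6497 CPM in *HOXA13* libraries. *Rrm2*, a subunit of ribonucleotide reductase, rose by 1.03 (adjusted p = 0.00033), and the helicase subunits *Mcm6* and *Mcm3* rose by 0.91 and 0.68 (adjusted p = 0.00133 and 0.00111). *Gins2*, of the replicative helicase complex, fell by 0.88 (adjusted p = 0.000673). *Mcm6* and *Mcm3* lie on chromosome 1, where the median log2 fold change of all tested genes was 0.37, while on the chromosomes of the 9 members it lay between -0.03 and 0.02. The count of 9 that rose became 6 without control replicate 3 or *HOXA13* replicate 1 or 2. It became 7 without *HOXA13* replicate 3, with the replicate number as a block, with library size alone and with upper quartile factors. The count of 1 that fell became 2 without control replicate 1, with library size alone and with upper quartile factors. *Pcna*, the replication clamp, stood at 161 to 170 CPM and 177 to 187 CPM and did not pass (adjusted p = 0.0883). The part of replication genes in the *Uhrf1* result was not tested.

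The oxidation genes diverged. *Tet2*, on chromosome 3 from 133126643 to 133207354 on the minus strand, stood at 46.5, 103 and 80.1 CPM in control and at 267, 219.8 and 229 CPM in *HOXA13* libraries. The lowest *HOXA13* library was above the highest control library. *Tet2* rose from 76.7 ± 28.6 to 239 ± 24.9 CPM (SD, n = 3 each), which is 3.12-fold higher (adjusted p = 0.00231). The log2 fold change was 1.64 with a standard error of 0.25, and the gene passed under all 16 alternatives, with log2 fold changes of 1.38 to 1.91.

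*Tet1*, the TET gene with the most counts in every library, lies on chromosome 10 from 62267318 to 62361866 on the minus strand. It stood at 361, 563 and 465 CPM in control and at 535, 488 and 489 CPM in *HOXA13* libraries, which all lay within the control range. The means were 463 ± 101 and 504 ± 26.9 CPM (SD, n = 3 each), and the log2 fold change of 0.12 did not pass (standard error 0.14, adjusted p = 0.567). Without control replicate 1 it was -0.029, so no direction can be given for *Tet1*.

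*Tet3*, which acts in the zygote and in differentiated cells, lies on chromosome 6 from 83312367 to 83391672 on the minus strand. It stood at 16.9, 21.2 and 20.2 CPM in control and at 15.03, 19.8 and 18.7 CPM in *HOXA13* libraries, and the groups overlapped (adjusted p = 0.559, with a log2 fold change of -0.12 and its standard error of 0.14). The ratio of *Tet2* to *Tet1* counts was 0.129, 0.184 and 0.172 in control and 0.499, 0.451 and 0.469 in *HOXA13* libraries. *Tet2* thereby took 13.4 ± 2.15% of the counts of the 3 *Tet* genes in control and 31.3 ± 1.24% in *HOXA13* libraries (SD, n = 3 each). The summed level of the 3 genes was 424, 688 and 566 CPM in control and 817, 727 and 737 CPM in *HOXA13* libraries.

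**Figure D3:**
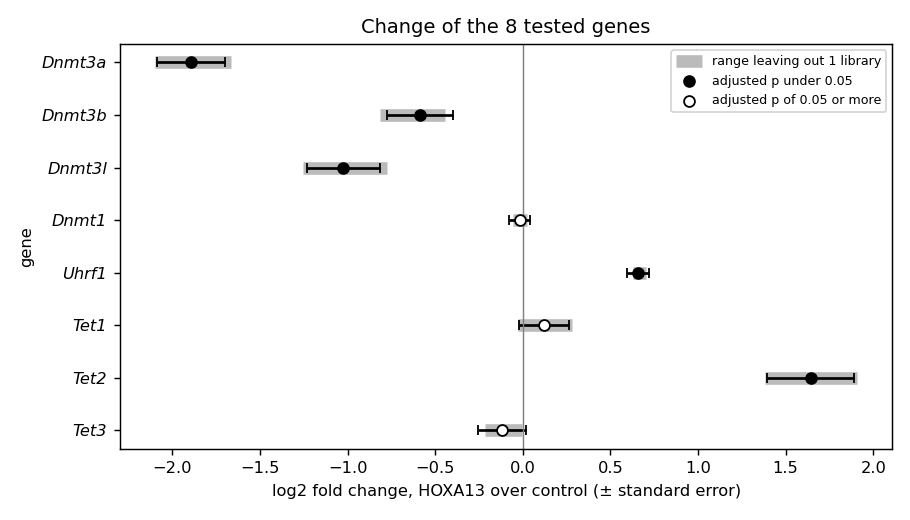
Log2 fold change of each of the 8 tested genes in HOXA13 over control libraries (points), with its standard error (black bars) and the range when 1 library is left out (grey bars). Filled points have an adjusted p under 0.05, and the grey ranges of Dnmt3a (-2.10 to -1.67) and Tet2 (1.38 to 1.91) stay far from 0, while that of Tet1 (-0.029 to 0.28) crosses it.

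*Tdg*, the glycosylase that removes oxidised methylcytosine, lies on chromosome 10 from 82092573 to 82113544 on the plus strand. It was counted 5, 4 and 6 times in control and 4, 2 and 3 times in *HOXA13* libraries, which is 0.110 to 0.303 CPM and close to the floor. It was therefore removed by the filter on low counts. With no filter its log2 fold change was -0.55 (edgeR's quasi-likelihood test, adjusted p = 0.556).

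The *Tdg* sequence is present in several further places of the genome. Of the 3630 windows of 75 bases in its annotated transcripts, the read length used, 2617 (72.1%) occur exactly elsewhere in mm9, and 83.7% come within 2 mismatches of such a place. The 4 places are chr10:41772364-41775273, chr7:83388075-83390961, chr15:82346753-82349711 and chr19:33746768-33748522, which hold 52.5%, 49.9%, 34.4% and 33.8% of the windows. In the coding sequence, 979 of 1192 windows (82.1%) occur elsewhere. One such window, coding bases 171 to 245, is shown because it crosses an exon junction in *Tdg* but stands without interruption at chr10:41774940-41775014 on the minus strand, chr15:82347012-82347086 on the plus strand and chr7:83390653-83390727 on the minus strand.
Tdg: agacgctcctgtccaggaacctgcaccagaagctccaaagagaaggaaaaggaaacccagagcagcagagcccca

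A read of that window fits 1 spliced and 3 unspliced places equally well. How reads with several places were counted is not given in the sources used here, and *Tdg* also shares 367 exonic bases with *Glt8d2* on the opposite strand. The low *Tdg* counts can therefore not be read as a low level of its RNA, and the same holds for its fold change between the groups. Among the other members the share of windows found elsewhere was 16.5% for *Uhrf1*, 3.00% for *Dnmt3b*, 0.359% for *Tet2*, 0.0681% for *Dnmt3a* and 0.0204% for *Tet1*, and 0 for *Dnmt1*, *Dnmt3l* and *Tet3*.

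**Figure D4:**
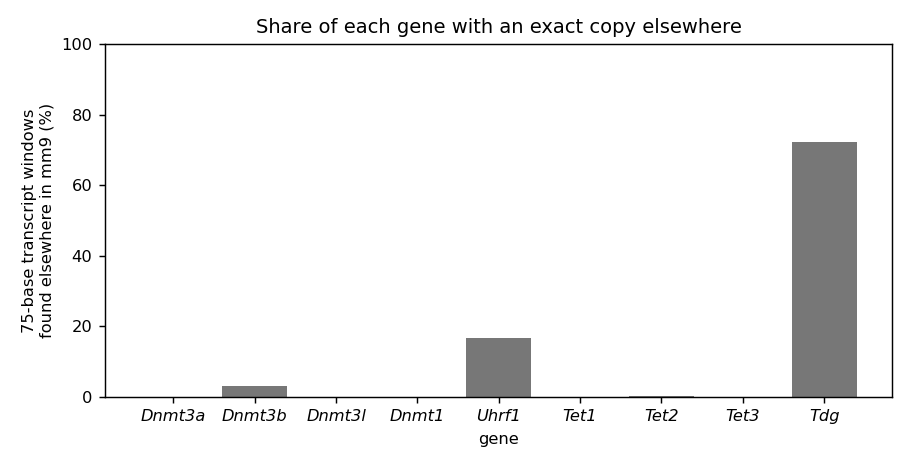
Percent of the 75-base windows of each gene's annotated transcripts that occur exactly elsewhere in mm9. Tdg stands at 72.1% and Uhrf1 at 16.5%, while the other 7 genes lie at 3.00% or below.

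Levels can be compared between genes only per length, and the following values are mean CPM per kilobase of annotated exon. In control libraries the order was *Dnmt3b* (96.5 ± 27.2), *Dnmt1* (68.7 ± 3.67), *Uhrf1* (63.5 ± 4.29), *Dnmt3l* (61.8 ± 20.1), *Tet1* (31.5 ± 6.87), *Dnmt3a* (11.0 ± 3.23), *Tet2* (8.33 ± 3.11), *Tet3* (1.75 ± 0.205) and *Tdg* (0.0495 ± 0.00752; SD, n = 3 each). The place of *Tdg* rests on counts that cannot be read as its level. The ranges of the first 4 overlapped from neighbour to neighbour, as did those of *Dnmt3a* and *Tet2*. In *HOXA13* libraries *Uhrf1* came first at 100.2 ± 1.49, before *Dnmt1* (67.8 ± 1.34) and *Dnmt3b* (64.2 ± 3.49), whose ranges overlapped. *Tet1* (34.2 ± 1.83), *Dnmt3l* (30.4 ± 0.607) and *Tet2* (25.9 ± 2.71) followed without overlap, then *Dnmt3a* (2.97 ± 0.0978), *Tet3* (1.61 ± 0.225) and *Tdg* (0.0335 ± 0.0115). *Tet2* thus stood below *Dnmt3a* in the control order and above it in the *HOXA13* order. With the length of the longest transcript in place of all exons, *Dnmt3l* moved to the second place in control (101 ± 32.9) and to the fourth in *HOXA13* libraries (49.9 ± 0.995). On that length *Dnmt3a* stood at 18.9 ± 5.55 in control and 5.10 ± 0.168 in *HOXA13* libraries, and its control range no longer overlapped that of *Tet2* (8.35 ± 3.12). *Dnmt3b* (75.9 ± 4.12) then stood above *Dnmt1* in *HOXA13* libraries without overlap.

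Of the 13846 tested genes, the 5 whose pattern over the 6 libraries was most like that of *Dnmt3a*, by the root mean square difference of centred log2 CPM, were *Mdk* (0.090), *Stmn2* (0.13), *Bzrap1* (0.13), *Gm1564* (0.14) and *Foxr2* (0.14). *Mdk*, which encodes the growth factor midkine, stood at 93.3, 51.4 and 72.0 CPM in control and at 20.2, 22.02 and 23.1 CPM in *HOXA13* libraries. *Stmn2*, which encodes a microtubule regulator, stood at 156, 97.8 and 164 CPM and at 35.8, 38.3 and 36.8 CPM. As for *Dnmt3a*, control replicate 2 was the lowest control library for both, which follows from choosing them by their likeness to *Dnmt3a* in these libraries.

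Control replicate 2 was also the lowest control library for *Dnmt3b* and *Dnmt3l*, and the highest for *Uhrf1*, *Tet1*, *Tet2* and *Tet3*. Markers of other cell states followed a similar order among the control libraries. The 8 primitive streak markers summed to 435, 40.2 and 188 CPM in control and to 22.4, 23.4 and 20.6 CPM in *HOXA13* libraries, and 5 of 7 tested fell. Among them *T*, *Mixl1* and *Wnt3* had log2 fold changes of -5.53, -5.24 and -5.01 (adjusted p = 0.00519, 0.0126 and 0.00698). *Fgf8* was counted 961, 43 and 365 times in control against 1, 1 and 0 times in *HOXA13* libraries (adjusted p = 0.00336). The count of 5 became 0 with limma-voom, 2 with at least 10 counts in every library, 2, 3 and 3 without *HOXA13* replicates 1, 2 and 3, and 8 without control replicate 2.

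The 10 formative and primed epiblast markers summed to 361, 212 and 296 CPM in control and to 208, 211 and 218 CPM in *HOXA13* libraries, and 7 of 10 fell. *Fgf5*, the classic marker of the primed state, stood at 36.3, 6.25 and 23.8 CPM and at 0.965, 0.605 and 0.605 CPM (log2 fold change -4.90, adjusted p = 0.0017). *Sox3*, *Pou3f1* and *Lef1* had log2 fold changes of -4.68, -3.39 and -2.66 (adjusted p = 0.00104, 0.00026 and 0.00462), while *Otx2* stood at 16.2 to 35.7 CPM and 31.3 to 33.6 CPM and did not pass (adjusted p = 0.498). *Zic2* and *Nkx1-2* did not pass either (log2 fold changes 0.34 and 0.051, adjusted p = 0.381 and 0.947). The count of 7 became 5 without *HOXA13* replicate 1 and with at least 10 counts in every library. It became 6 without *HOXA13* replicate 2 and with the replicate number as a block, and 1 marker rose without control replicate 1. Of the 10 embryonic stem cell markers 5 rose and 1 fell: *Klf4* rose by 1.14 (adjusted p = 0.0297), *Fbxo15* by 1.07 (adjusted p = 0.000256) and *Esrrb* by 0.78 (adjusted p = 0.0349), with *Sox2* and *Nanog*, and *Tdgf1*, a Nodal co-receptor, fell by 1.09 (adjusted p = 3.03e-05). The count of 5 embryonic stem cell markers became 2 without any 1 of the 3 *HOXA13* libraries and 3 without control replicate 3, and the count of 1 became 2 without control replicate 1. The part of these cell states in the results for *Dnmt3a*, *Dnmt3b*, *Dnmt3l* and *Tet2* was not tested.

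**Figure D5:**
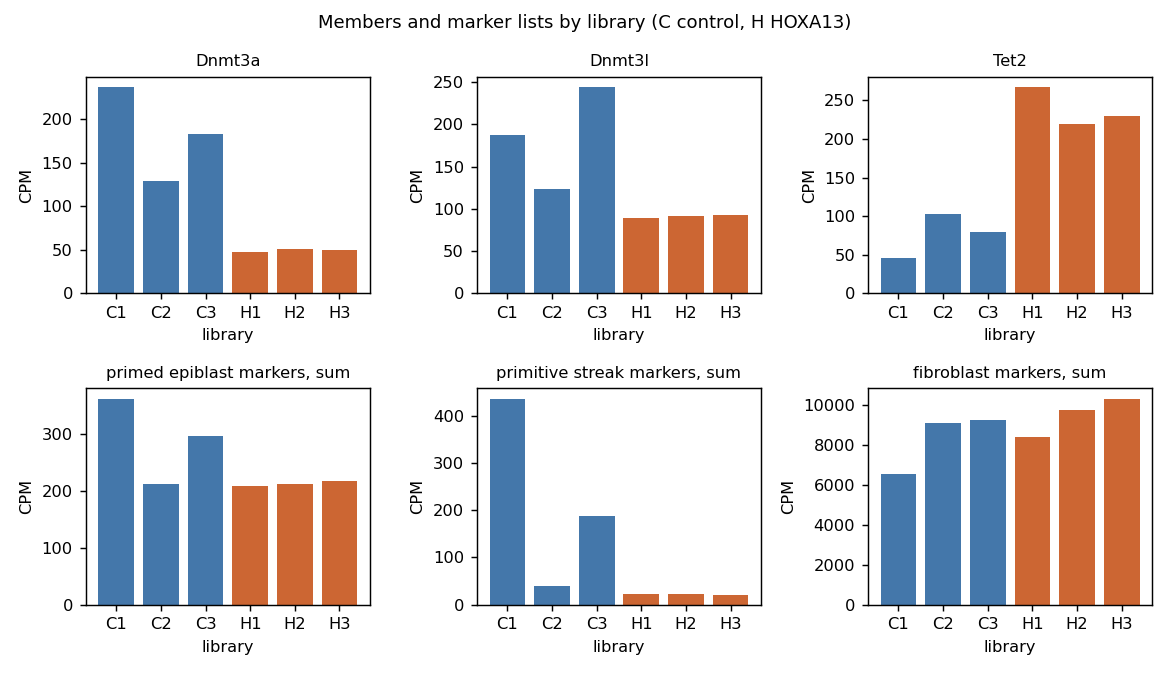
CPM of Dnmt3a, Dnmt3l and Tet2 (top) and summed CPM of the primed epiblast, primitive streak and fibroblast marker lists (bottom), with 1 bar per library (C control, H HOXA13, numbered by replicate). Control replicate 2 has the lowest Dnmt3a (129 CPM), the lowest primed sum (212 CPM) and the lowest streak sum (40.2 CPM) of the control libraries.

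Other cell types the cultures could hold were read the same way. None of the 15 fibroblast markers passed edgeR's quasi-likelihood test after adjustment, with 1 higher and 1 lower at an unadjusted p under 0.05, and the same numbers passed DESeq2 after adjustment and none limma-voom. Leaving out 1 library gave at most 2 fibroblast genes above (control replicate 2 absent) and 2 below the control level (control replicate 1 absent). With the replicate number as a block 2 were higher and 1 lower, 2 were lower with each chromosome centred, and 1 was lower with RLE factors, library size alone or upper quartile factors. They summed to 6545 to 9252 CPM in control and 8419 to 10319 CPM in *HOXA13* libraries. Of 9 tested primitive endoderm markers 2 rose and 3 fell: *Sox7* and *Gata6* rose by 2.14 and 1.80 (adjusted p = 0.0126 and 0.000391), and *Lama1* and *Pdgfra* had log2 fold changes of -2.22 and -0.80 (adjusted p = 0.000557 and 0.0192), while *Lamb1* also fell. The count of 2 became 1 without any 1 of the *HOXA13* libraries, and the count of 3 became 5 without control replicate 2. Their sum was 975 to 1110 CPM in control and 730 to 835 CPM in *HOXA13* libraries, and *Sox17* was at or near 0 in each library, from 0 to 0.378 CPM.

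Genes that guide or oppose the methylation machinery moved in both directions. Of 18 such genes, all tested, 7 rose and 4 fell, against 14.4% higher and 13.3% lower among all tested genes. *Dppa3*, which encodes STELLA, a protein that keeps UHRF1 from chromatin, stood at 36.1, 34.2 and 46.6 CPM in control and at 93.1, 86.6 and 83.4 CPM in *HOXA13* libraries (log2 fold change 1.17, adjusted p = 0.000395). *Prdm14*, which represses *Dnmt3* genes in embryonic stem cells, stood at 9.54, 15.8 and 8.08 CPM and at 19.3, 22.3 and 24.3 CPM (log2 fold change 1.00, adjusted p = 0.015), and it lies on chromosome 1. *Cxxc5*, which encodes a CpG-binding partner of TET2, rose by 0.62 (adjusted p = 0.00474), and its paralog *Cxxc4* fell by 1.21 at a low level, from 0.657 to 0.883 CPM to 0.227 to 0.355 CPM. *Uhrf2*, *Usp7*, *Setdb1* and *Ogt* also rose, and *Ehmt1*, *Hells* and *Kdm1a* also fell. The count of 7 higher genes became 5 without *HOXA13* replicate 1 or 2 and 6 without *HOXA13* replicate 3. The count of 4 lower genes became 1 with the replicate number as a block, without *HOXA13* replicate 2 or 3 and without control replicate 3, and 2 without *HOXA13* replicate 1.

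Base excision repair completes demethylation after TDG. Of 10 genes 2 rose, against 14.4% higher among all tested genes: *Parp1* by 0.42 (adjusted p = 0.0252) and *Polb* by 0.27 (adjusted p = 0.0273). *Parp1* lies on chromosome 1, and the count of 2 became 1 with each chromosome centred, with library size alone, with upper quartile factors and with the replicate number as a block. It became 0 without any 1 of the *HOXA13* libraries or without control replicate 3, and without control replicate 2 there were 4 higher and 1 lower. Among 7 readers of methylated DNA only *Mbd1* passed (log2 fold change 0.47, adjusted p = 0.0341), and it did not without control replicate 3 or without any 1 of the *HOXA13* libraries, while 2 passed without control replicate 2. None of the 7 passed with library size alone or with the replicate number as a block, and 2 passed with DESeq2, with limma-voom, with no filter and with each chromosome centred.

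In the pathway that supplies the methyl donor S-adenosylmethionine, 3 of 8 tested genes rose. Methionine synthase *Mtr* rose by 0.65 (adjusted p = 0.00247) and its reductase *Mtrr* by 0.49 (adjusted p = 0.00511), whereas *Ahcy*, which clears S-adenosylhomocysteine, fell by 0.40 (adjusted p = 0.0172). *Ahcy* did not pass without control replicate 3 (adjusted p = 0.0538) or without *HOXA13* replicates 1, 2 or 3 (adjusted p = 0.057, 0.0833 and 0.0604). *Bhmt*, which encodes a further homocysteine methyltransferase, was counted 0, 1 and 0 times in control against 20, 14 and 16 times in *HOXA13* libraries (adjusted p = 0.00134). *Mat2a*, the S-adenosylmethionine synthetase gene of these cells, stood at 390 to 427 CPM and 355 to 414 CPM (adjusted p = 0.268), and *Mat1a* was not tested.

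Germline genes, a class known to be held silent by promoter methylation in somatic cells, were read as a list of 16, of which 12 were tested. Of these 5 rose, and the median log2 fold change was 0.71. *Taf7l* rose by 1.67 (adjusted p = 0.0146), *Sycp1* by 1.36 (adjusted p = 0.00392) and *Tdrd1* by 0.83 (adjusted p = 0.00904). *Stk31* rose by 0.81 (adjusted p = 0.0479), and *Ddx4*, an RNA helicase gene, by 0.78 from 30.7 to 35.9 CPM to 55.0 to 57.7 CPM (adjusted p = 0.000442). *Dazl*, the best known germline gene of the list, stood at 2.51 to 4.29 CPM and 5.37 to 5.89 CPM and did not pass (adjusted p = 0.0618). The count of 5 became 3 without *HOXA13* replicate 1 or 2 or control replicate 3.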

How the data were processed

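RNA was sequenced from 3 control and 3 *HOXA13* libraries of non-differentiated KH2 mESCs, with groups and replicate numbers taken from the sample labels. The authors made poly(A) libraries with a directional kit, mapped reads of 75 bases to mm9 and deposited whole-number counts per gene, without normalization, in 1 table per library. The submitters' processing notes name bcl2fastq 2.17, TopHat2 2.0.14 and HTSeq 0.6.1p1. The annotation, the strand setting and the treatment of reads with several places are not given in the sources used here.

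Counts were filtered with filterByExpr (minimum count 10, minimum total 15), scaled with TMM factors and tested with edgeR 4.0.16 (glmQLFit and glmQLFTest, R 4.3.3) at a Benjamini-Hochberg adjusted p under 0.05 over all 13846 tested genes, with no covariate. The fold changes use a prior count of 0.125, and standard errors are the log2 fold change over the square root of F. The code was first tested on simulated data. The 9 members and all lists were chosen with earlier results of these data known. Genes named are the members, the targeted gene and mouse *Hoxa13*, genes of the lists past the threshold (values for the 4 largest changes per list) and the 5 genes nearest to *Dnmt3a*. *Pou5f1*, *Pcna*, *Otx2*, *Sox17*, *Mat2a*, *Mat1a*, *Ddx4* and *Dazl* were added after their values were seen, and some genes of the lists are not reported here. A share of 22033 of 24393 features was placed on GENCODE genes of NCBIM37 (mm9). Windows of 75 bases were matched to that genome exactly on both strands. Promoters are from a RefSeq table of GRCm38.p6, and coordinates were read by matching each sequence to mm9.

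Alternatives were RLE, upper quartile and no scaling factors, 2 other filters, robust estimation, a block for the replicate number, DESeq2 1.42.0, limma-voom (limma 3.58.1), centring of each chromosome, the longest transcript as gene length, and each library left out in turn. Replicates were compared by a chi-square test over genes with at least 20 counts in a pair. Figures were drawn with matplotlib 3.10.9.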

Additional observations from a re-analysis of the deposited data

How the results depend on the processing

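The calls for *Dnmt3a*, *Uhrf1* and *Tet2* and the side of the threshold of *Tet3* were kept under the 16 alternatives, and 117 of 128 fold changes of members kept both direction and side. *Dnmt3b* did not pass with the replicate block (-0.55), robust estimation (-0.59) or limma-voom (-0.55), and ranged from -0.81 to -0.45 with 1 library left out. *Dnmt3l* ranged from -1.25 to -0.78 with 1 library left out. *Dnmt1* ranged from -0.055 to 0.022 and *Tet1* from -0.029 to 0.28, and both changed sign without control replicate 1 (0.022 and -0.029). The number of members that fell ranged from 1 to 3, with the lowest value without *HOXA13* replicate 1. With 1 library left out, genes called higher ranged from 1134 to 2428 and genes called lower from 904 to 2579. Without *HOXA13* replicates 1, 2 and 3 there were 1134, 1151 and 1277 higher and 904, 953 and 1034 lower genes, and the cause was not tested.

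Library size alone, without scaling factors, gave 1576 higher and 2500 lower genes (38.7% higher against 52.0% of calls in the main result), and the calls of the members did not change. The sample titles do not say whether the replicate numbers pair the samples. The correlations of deviations of same-numbered libraries were -0.015, -0.045 and 0.018, and those of differently numbered libraries ranged from -0.027 to 0.048. These values show no pairing but cannot exclude it with 3 libraries per group. The replicate block gave 1696 higher and 1476 lower genes. Of 352 list counts, 288 stayed within 1.5 times the main count. Centring of each chromosome changed no call of a member. No setting bears on the repeated sequence of *Tdg*, which was left untested by the filter and -0.55 with no filter.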
